A study of Mus musculus with 32 samples.

Results

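Upk1b encodes uroplakin 1B, and it is 1 of the 55385 genes counted in RNA from microglia sorted out of the injured mouse cortex. The gene was taken by its symbol. It was selected on the injured over non-injured fold change at each day in these data, being lower on the injured side every time, so all of its values for injured against non-injured tissue are given as a description with no test. In the GENCODE M21 annotation of GRCm38, Upk1b (ENSMUSG00000049436.5) is a protein-coding gene on the minus strand of chr16:38773184-38800328 with 8 exons in its transcript Upk1b-201, and 0 other annotated genes overlap it. The sources used here do not state the build behind the deposited counts. The RNA was strongly reduced at the wound but not lost, since it was counted in every injured library.

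Uroplakins are membrane proteins best known from the bladder, where they form the rigid plaques on the inner surface of the urothelium. Uroplakin 1B belongs to the tetraspanins, a large family of proteins that cross the membrane several times and gather partner proteins into patches, and in the bladder it pairs with uroplakin 3A. Microglia, the resident macrophages of the brain, carry a resting set of surface receptors, the homeostatic genes, of which the nucleotide receptor P2ry12 is the most widely used marker.

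The tissue came from adult heterozygous Cx3cr1CreER mice on the C57BL/6 background, all given tamoxifen (180 mg/kg by intraperitoneal injection on each of 5 days, at 8 to 10 weeks of age) to switch on the yellow fluorescent protein EYFP. The injured libraries hold EYFP+ cells from the site of a cortical stab wound. The non-injured libraries hold EYFP+ cells from the matching place in the other hemisphere of operated mice, which the sample titles call sham. Both sides were taken on days 1, 4, 7 and 14 from females and males. Cx3cr1 is also active in monocytes and in macrophages at the borders of the brain, so the sort does not by itself separate these from microglia. Each of the 16 groups has 2 count columns that differ by little more than counting noise, and these were summed into 1 library, which leaves 8 pairs, each made of the injured and the non-injured library of 1 day and sex. The labels do not tie a library to an animal, so p-values measure only the spread between these samples, which may be technical.

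The libraries held between 20863982 and 55378788 counts and between 14737 and 40975 detected genes. Mitochondrial transcripts made up 0.697% to 25.7% of the counts. The highest mitochondrial share was in the day 4 male non-injured library, which also had the highest sum of neuron markers, 9011 CPM. The defining microglial marker P2ry12 was abundant on both sides, between 149 and 2221 CPM in injured libraries and between 671 and 11523 CPM in non-injured libraries. CPM here are counts per 1e+06 of the library total after TMM scaling (trimmed mean of M-values, a correction for RNA composition).

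Upk1b was low in all 8 injured libraries and moderate to high in the non-injured libraries. On day 1 it stood at 4.44 CPM in the injured female library and 181 CPM in the non-injured female library, and at 0.910 CPM in the injured male library and 65.9 CPM in the non-injured male library. On day 4 the injured female library had 4.40 CPM and the non-injured one 139 CPM, and the injured male library had 1.02 CPM and the non-injured one 16.9 CPM. On day 7 the injured female library had 6.95 CPM and the non-injured one 129 CPM, while the injured male library had 5.94 CPM and the non-injured one 136 CPM. On day 14 the injured female library had 25.6 CPM against 564 CPM in the non-injured one, and the injured male library had 4.70 CPM against 41.2 CPM in the non-injured one. The injured library was the lower one in 8 of 8 pairs, which was so for 1163 of the 28597 genes tested (4.07%). Across pairs the sides overlapped at 1 place only: the day 14 female injured library lay above the day 4 male non-injured library.

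**Figure D1:**
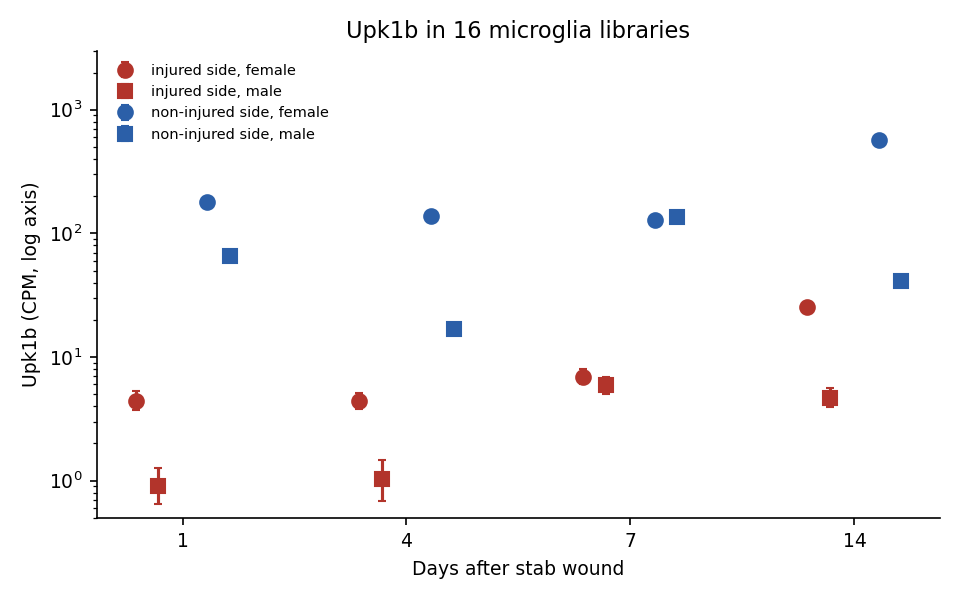
Upk1b in CPM on a log axis in the 16 libraries, by day after the stab wound, with injured libraries in red to the left of non-injured libraries in blue, females as circles and males as squares. Bars are exact 95% intervals that cover counting error only; injured libraries run from 0.910 to 25.6 CPM and non-injured libraries from 16.9 to 564 CPM.

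The mean was 6.74 ± 7.89 CPM in injured libraries and 159 ± 173 CPM in non-injured libraries (SD, n = 8 each). The day 14 female pair weighed heavily on both means. Without it the mean was 4.05 CPM in injured and 101 CPM in non-injured libraries. The medians, 4.57 CPM for injured and 133 CPM for non-injured libraries, moved less with that pair.

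Even the lowest of these values rests on counted reads. Upk1b had between 28 and 651 counts in the injured libraries and between 436 and 13726 counts in the non-injured ones. The smallest value, 0.910 CPM in the day 1 male injured library, rests on 37 counts and has an exact (Clopper-Pearson) 95% interval of 0.641 to 1.25 CPM. These intervals cover counting error only, since the reads carry no molecular identifiers.

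Scaled to transcript length, as the authors' deposited TPM values, Upk1b averaged 3.91 ± 3.78 TPM in injured libraries and 137 ± 103 TPM in non-injured libraries (SD, n = 8 each). Among the 21856 protein-coding genes of a library, it ranked between place 4344 and place 12186 on the injured side. In the non-injured libraries it ranked between place 285 and place 2260, except for place 6282 in the day 4 male library. Upk1b thus ranked further down in every injured library than in the non-injured library of the same day and sex. In bulk RNA of this kind, fewer cells that express a gene and less RNA per cell cannot be told apart.

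The share of the non-injured level that was left in the injured library of the same pair was smallest on day 1, at 2.46% in females and 1.38% in males. It was 3.16% in females and 6.04% in males on day 4, and 5.37% in females and 4.36% in males on day 7. On day 14 it was 4.53% in females and 11.4% in males. The fit across all genes gave a log2 change, injured over non-injured, of -5.68 (SE 0.54) on day 1, -4.68 (SE 0.55) on day 4, -4.37 (SE 0.49) on day 7 and -3.87 (SE 0.49) on day 14. The mean over the 4 days was -4.65 (SE 0.26), the contrast in which 15.7% of all genes passed at an adjusted p under 0.05, beside a median of -0.32 over all 28597 genes, which median-ratio scaling placed at -0.44. By single day 1.05%, 2.04%, 0.374% and 0.0594% of all genes passed on days 1, 4, 7 and 14. Each day's estimate rests on 2 pairs, and a difference in the injury effect between days was not tested. The order of the days was not stable: limma on log2(TPM + 1) gave -5.54, -3.89, -5.03 and -3.81 on days 1, 4, 7 and 14. Without the day 4 female pair the fit gave -3.94 on day 4, and without the day 14 female pair it gave -3.08 on day 14.

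The authors' deposited table gave log2 fold changes for Upk1b, injured over non-injured, of -5.60 on day 1, -5.19 on day 4, -4.79 on day 7 and -4.29 on day 14. In its comparisons within females, the authors' deposited table listed -5.49, -5.42, -4.83 and -4.48 on days 1, 4, 7 and 14. For males the authors' deposited table listed -5.92, -4.20, -4.75 and -3.13 on the same days. The sizes in the deposited tables were largest on day 1 and smallest on day 14 in both sexes, from the same libraries as above.

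Days were also compared within 1 side. The gene was chosen for a low injured level at every day, so its choice bears on this comparison too, although no contrast between days was used. On the injured side, edgeR's quasi-likelihood F test over the 4 days, with sex as a term, gave an adjusted p of 0.604 (unadjusted, 0.0197), where 23 of 22040 genes passed (0.104%). Leaving out single libraries moved that adjusted p between 0.105 and 1.00, and DESeq2 gave an adjusted p of 0.0980. On the non-injured side edgeR gave an adjusted p of 1.00. There 0 of 24622 genes passed with edgeR and 352 had an unadjusted p under 0.05, while DESeq2 called 8 genes and limma 0. With 3 residual degrees of freedom, these fits do not show that Upk1b stayed level over the days.

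Females had more Upk1b RNA than males at most times, by amounts that did not pass the test. On the injured side the female library was higher on 4 of 4 days, by 4.88-fold on day 1, 4.31-fold on day 4, 1.17-fold on day 7 and 5.44-fold on day 14. On the non-injured side the female level was 2.74-fold the male level on day 1, 8.23-fold on day 4, 0.948-fold on day 7 and 13.7-fold on day 14. These folds are in CPM, and the day 7 order depended on the scaling. By deposited TPM the day 7 non-injured female library was the higher one, at 176 TPM against 122 TPM in the male library. On days 1, 4 and 14 the female and male non-injured libraries had 173 and 93.1, 138 and 7.71, and 346 and 43.9 TPM. The fitted log2 difference, female over male, was 1.53 (SE 0.68) on the injured side with an adjusted p of 0.513 in edgeR. It was 2.08 (SE 0.76) on the non-injured side with an adjusted p of 0.481 in edgeR, where DESeq2 gave 0.0611. In these tests 6 of 22040 genes passed on the injured side (0.0272%) and 7 of 24622 on the non-injured side (0.0284%). Treating the 2 columns of each group as separate samples would move both adjusted p-values past the threshold, to 0.00180 on the injured and 0.00445 on the non-injured side, but those columns differ by little more than counting noise.

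The size of the injury effect was also compared between the sexes. Its log2 difference, female over male, was -0.33 (SE 0.59), with an adjusted p of 0.876 in edgeR's quasi-likelihood test, and its sign turned to 0.19 without the day 14 male pair. No gene passed this test in edgeR: 0 of 28597 were called, 2737 had an unadjusted p under 0.05, and DESeq2 called 84 genes and limma 0. An SE of this size leaves room for a sizeable difference in either direction.

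Male non-injured libraries also carried more neuronal RNA than female ones on 3 of 4 days. The summed CPM of 12 neuron markers was 524, 232, 109 and 144 in female non-injured libraries on days 1, 4, 7 and 14, against 428, 9011, 776 and 1979 in male ones. The mitochondrial share ran from 1.16% to 5.43% in female and from 1.93% to 25.7% in male non-injured libraries. The part of either in the sex difference of Upk1b was not tested.

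The other uroplakins were close to undetected in these cells. Upk1a, the second tetraspanin of the bladder plaque, reached at most 0.398 CPM in an injured library and 1.18 CPM in a non-injured one. Upk2 and Upk3a, which code for the single-pass partners of the uroplakin tetraspanins, stayed at or below 0.210 CPM in every library. The related Upk3b had a maximum of 0.0730 CPM in injured and 0.437 CPM in non-injured libraries, and Upk3bl 0.437 CPM in injured and 0.270 CPM in non-injured ones. Only Upk1a and Upk3bl had enough counts to be tested, and neither passed. Upk1b was thus the sole uroplakin with an appreciable level on either side.

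Genes of cell types that carry uroplakins elsewhere in the body were also near the floor. The 10 urothelium markers, which include keratins such as Krt5 and Krt20, summed to between 0 and 1.54 CPM in injured libraries and between 0 and 1.63 CPM in non-injured ones, and 0 of the 4 that could be tested passed. The 9 mesothelium markers summed to between 0 and 7.07 CPM in injured libraries and between 0 and 13.1 CPM in non-injured ones, and 0 of 8 tested passed. In the day 14 female non-injured library, where Upk1b was highest at 564 CPM, both sums were 0. That library had only 14777 detected genes, and only the day 14 female injured library had fewer, 14737. Sums of 0 for such scarce markers therefore carry little weight there.

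Transcription factors of the urothelium were likewise scarce. Among 8 of them, 6 had enough counts to be tested, and Pparg, a nuclear receptor that governs lipid metabolism and is needed for urothelial differentiation, rose to 4.15 ± 4.20 CPM in injured libraries against 0.751 ± 0.857 CPM in non-injured ones (SD, n = 8 each). Its log2 change was 2.53 (SE 0.59) with an adjusted p of 0.0163 in edgeR. That call was lost without either day 1 pair and in limma, and without the day 7 male library the non-injured mean was 0.488 CPM. The direction is opposite to that of Upk1b. The other 5 did not pass, among them Gata3 with 1.19 CPM in injured and 0.373 CPM in non-injured libraries on average.

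Upk1b is 1 of 31 tetraspanin genes examined, a list that also holds Upk1a. By deposited TPM it ranked place 19 of 31 on the injured side and place 12 of 31 on the non-injured side. Cd81, a partner of many receptors, ranked first on both sides with a mean of 2770 TPM in injured and 6109 TPM in non-injured libraries. Of the other 30 tetraspanins, 3 rose, 6 fell and 21 did not pass the test for the mean of the 4 days, beside 7.76% of all genes that rose and 7.96% that fell. Their median log2 change was -0.50, against -0.32 over all genes. None of the 30 had a fall as large as that of Upk1b.

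The tetraspanins that fell were led by Tspan18, linked to calcium entry in endothelial cells, with a mean of 10.7 ± 10.5 CPM in injured and 53.1 ± 39.8 CPM in non-injured libraries (SD, n = 8 each). Its log2 change was -2.39 (SE 0.21, adjusted p = 3.0e-04 in edgeR). Tspan7, a tetraspanin abundant in neurons, fell by 1.64 on the log2 scale (SE 0.36), and its highest level, 2248 CPM, was in the day 4 male non-injured library that also had the most neuron marker RNA. Tspan13 fell by 1.63 (SE 0.21), to 54.0 ± 29.3 CPM in injured libraries against 155 ± 45.3 CPM in non-injured ones. Tspan9, Cd81 and the scarce Tspan33 completed the group, with log2 changes of -0.88 for Tspan9, -0.52 for Cd81 and -1.47 for Tspan33.

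The tetraspanins that rose were Cd63, Cd9 and Tspan4. Cd63, a protein of lysosomes and secreted vesicles, averaged 1464 ± 789 CPM in injured and 224 ± 142 CPM in non-injured libraries (SD, n = 8 each), with a log2 change of 2.72 (SE 0.17, adjusted p = 8.8e-05 in edgeR). Cd9, which organises adhesion and fusion partners at the cell surface, rose by 0.99 on the log2 scale (SE 0.20), and Tspan4, known from the retraction fibres of migrating cells, by 0.83 (SE 0.21). Cd63 and Cd9 are also members of the disease-associated microglia list below. The calls of Tspan18, Tspan13 and Cd63 held in all 8 fits that left out 1 pair. Those of Cd81, Tspan9 and Tspan4 each ended in 6 of the 8, that of Tspan7 without either day 1 pair, the day 7 male or the day 14 male pair, and that of Cd9 without the female pair of day 1, 7 or 14 and in limma. Counts of the smaller changes depended on single pairs: 2 of the 30 fell without the day 1 female, the day 1 male or the day 7 male pair and 3 without the day 14 male pair, and 1 rose without the day 1, day 7 or day 14 female pair. Without the day 4 female pair 5 rose. With DESeq2 10 fell and 3 rose, with limma on log2(TPM + 1) 12 fell and 1 rose, and with no filter on low counts 4 fell and 3 rose.

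**Figure D2:**
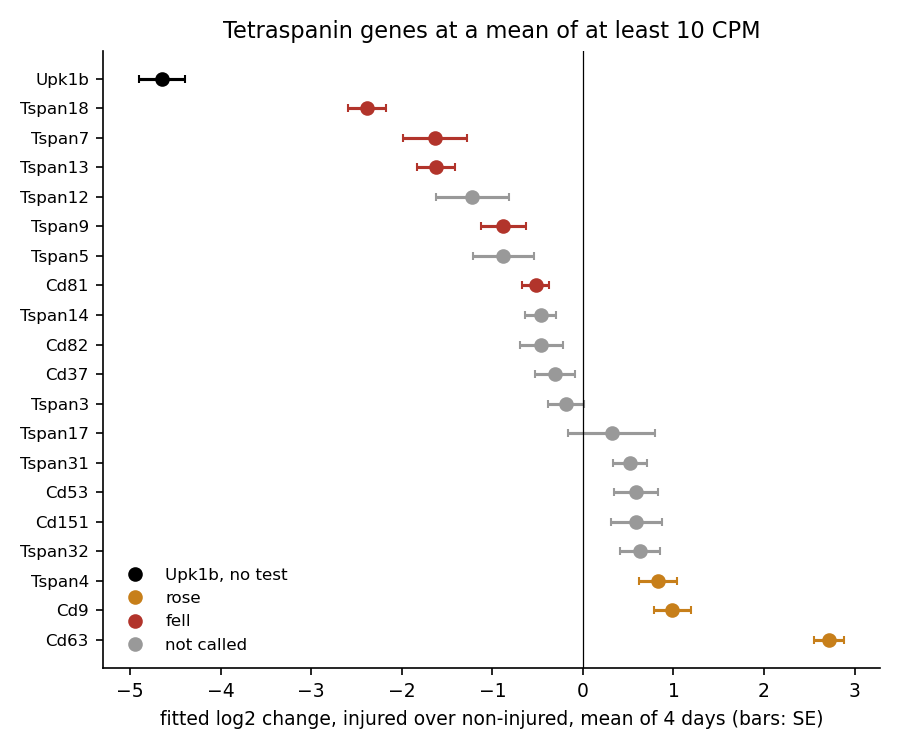
Fitted log2 change, injured over non-injured, for the mean of the 4 days with its SE, for the 20 tetraspanin genes with a mean of at least 10 CPM over the 16 libraries. Upk1b, in black, stands at -4.65, apart from Tspan18 at -2.39 as the next lowest, while Cd63 stands at the other end at 2.72.

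The homeostatic genes of microglia were mostly reduced at the wound, and Upk1b by more than nearly all of them. Of 26 homeostatic genes, 19 fell, 1 rose and 6 did not pass, beside 7.96% of all genes that fell and 7.76% that rose. The median log2 change of the 26 was -1.29, against -0.32 over all genes. Their summed level was between 15608 and 59543 CPM in injured libraries and between 24054 and 120245 CPM in non-injured ones, and it was lower on the injured side in 8 of 8 pairs. The count that fell stayed between 17 and 20 when any 1 pair was left out.

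P2ry12, which senses nucleotides from damaged cells, stood at 149 to 2221 CPM with a median of 606 CPM in injured libraries, against 671 to 11523 CPM with a median of 3606 CPM in non-injured libraries. Its log2 change was -2.50 (SE 0.22, adjusted p = 2.7e-04 in edgeR). Slc2a5, a fructose transporter, fell by 2.94 on the log2 scale (SE 0.19), and the adhesion receptor Adgrg1 by 2.53 (SE 0.17). Selplg, which codes for the selectin ligand PSGL-1, fell by 2.22 (SE 0.17). Fcrls, an Fc-receptor-like surface protein, rose by 0.75 (SE 0.16), a call that ended in 5 of the 8 fits that left out 1 pair and in limma.

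The one homeostatic gene with a larger fall than Upk1b was Gpr165, an orphan G protein-coupled receptor. Its level ran from 0 to 4.01 CPM with a median of 0.0547 CPM in injured libraries and from 0.781 to 111 CPM with a median of 7.74 CPM in non-injured ones. The fitted log2 change was -6.56 (SE 0.51), a value that leans on libraries with no counts. Its highest value came from the day 4 female non-injured library, without which the non-injured mean was 7.03 CPM. Among all 9025 genes with a mean of at least 10 CPM over both sides, Gpr165 was the only one with a fitted fall larger than that of Upk1b. This place is only a description, since Upk1b was chosen for its fall. The filter also leaves out scarcer genes, and a gene with a large fall passes it through the non-injured side. Gpr165 passed at a mean of 10.4 CPM, from 0.623 CPM in injured and 20.1 CPM in non-injured libraries. In the authors' deposited table, among 10373 genes with a mean signal of at least 100, Upk1b was number 35 from the lowest fold change on day 1, number 15 on day 4, number 49 on day 7 and number 40 on day 14. In its comparisons within females the authors' deposited table placed Upk1b at number 162, 3, 16 and 383 on days 1, 4, 7 and 14. Within males the authors' deposited table placed it at number 62, 197, 146 and 266.

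Pairs were compared on the log2(CPM + 1) scale, which understates the change of low genes. On it Upk1b had a larger fall than every one of the 26 homeostatic genes in 7 of 8 pairs. In the day 14 male pair 1 of the 26 went lower. A plain CPM ratio would not give this count. Gpr165 had 0 CPM in the day 1 female, day 1 male, day 7 male and day 14 female injured libraries. Their non-injured partners had 4.63, 16.6, 2.12 and 0.781 CPM of Gpr165, while Upk1b was above 0 in every injured library. On the log2(CPM + 1) scale the pair differences of Upk1b were -5.06 and -5.13 for females and males on day 1, and -4.70 and -3.15 on day 4. They were -4.04 and -4.31 on day 7, and -4.41 and -2.89 on day 14, again with females before males. The medians of the 26 homeostatic genes in the same pairs were -1.85 and -2.62, -0.95 and -0.78, -0.92 and -1.10, and -1.11 and -0.78. The smallest changes of Upk1b were in the day 4 and day 14 male pairs, whose non-injured libraries had the lowest Upk1b levels and the highest neuron marker sums. The part of the neuronal RNA in these smaller changes was not tested.

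**Figure D3:**
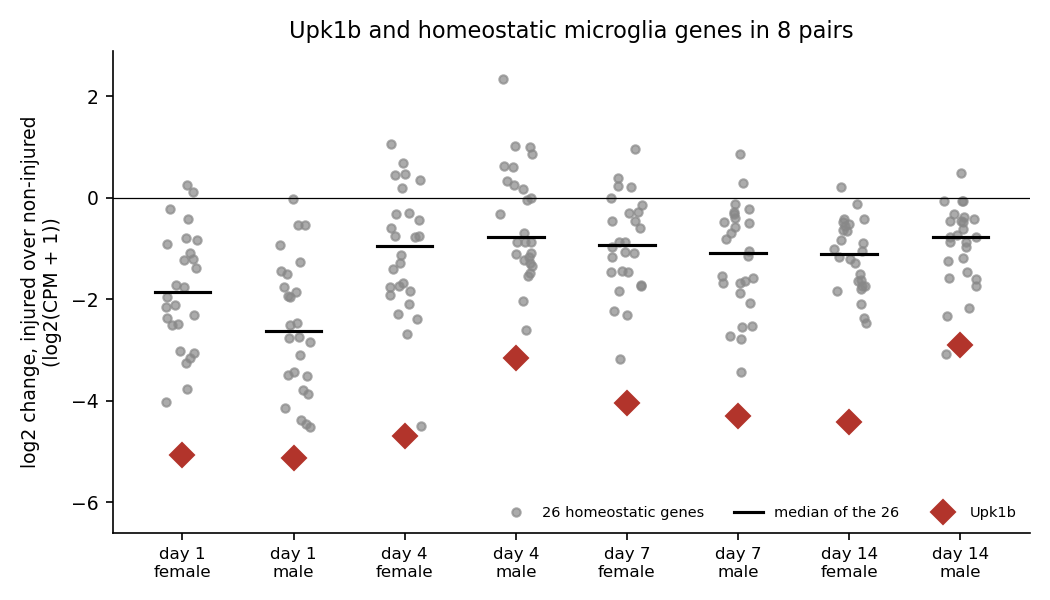
Difference in log2(CPM + 1), injured over non-injured, in each of the 8 day-by-sex pairs, for Upk1b (red diamonds), the 26 homeostatic genes (grey points) and their median (black bars). Upk1b lies between -5.13 and -2.89 and below all grey points except 1 in the day 14 male pair.

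Relative to P2ry12, Upk1b was lower on the injured side in 8 of 8 pairs. The log2 ratio of Upk1b to P2ry12 in CPM ran from -7.69 to -5.54 with a median of -6.63 in injured libraries, and from -5.69 to -4.24 with a median of -5.15 in non-injured libraries. The ranges met only at their ends, so the fall of Upk1b was larger than that of P2ry12 in the same libraries.

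Transcription factors that shape microglia showed a weaker pattern. Among 14 of them, 4 fell and 0 rose, beside 7.96% of all genes that fell and 7.76% that rose. Their median log2 change was -0.01, against -0.32 over all genes. Sall1, a repressor that keeps microglial identity and is also on the homeostatic list, fell by 1.72 on the log2 scale, its relative Sall3 by 1.09, the TGF-beta effector Smad3 by 0.93 and Mef2c by 0.74. The number that fell was 2 without the day 1 male, the day 7 female or the day 7 male pair, and 6 with DESeq2 or limma. The most abundant by its mean, Bhlhe41, did not pass, with 795 CPM in injured and 748 CPM in non-injured libraries. The day 14 female library of each side carried these means, which were 350 CPM in injured and 302 CPM in non-injured libraries without it.

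Genes of disease-associated microglia, the state described around plaques and lesions, went the other way from Upk1b. Of 25 such genes 24 rose and 0 fell, beside 7.76% of all genes that rose and 7.96% that fell. Their median log2 change was 2.48, and the sum was higher on the injured side in 8 of 8 pairs. The lipid carrier Apoe averaged 52650 ± 47327 CPM in injured and 4132 ± 3918 CPM in non-injured libraries (SD, n = 8 each), a log2 change of 2.60 (SE 0.41, adjusted p = 0.0033 in edgeR). Apoe was higher on the injured side in 6 of 8 pairs. On day 1 it was lower there, at 979 CPM in the injured and 3178 CPM in the non-injured female library, and at 183 CPM in the injured and 483 CPM in the non-injured male library.

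Markers of other blood and brain cells also moved between the sides, and they are given for the whole of each list. Of 15 monocyte markers 13 rose and 0 fell, with sums of 227 to 2136 CPM in injured and 25.9 to 213 CPM in non-injured libraries, though 7 rose without the day 14 male pair. Fn1, fibronectin, was their most abundant member, at 440 CPM in injured and 24.8 CPM in non-injured libraries on average. Without the day 4 female injured library the injured mean was 238 CPM. Of 12 markers of border-associated macrophages 6 rose and 1 fell, and the sums were 665 to 4010 CPM on the injured and 115 to 1264 CPM on the non-injured side. Their most abundant member was the scavenger receptor Stab1, with a log2 change of 0.93. Of 10 neutrophil markers 7 rose and 0 fell, with sums of 60.3 to 662 CPM in injured and 51.8 to 714 CPM in non-injured libraries. Csf3r alone made up 65.6% of that sum on the injured and 98.6% on the non-injured side. Without it the sum was 8.44 to 317 CPM in injured and 0.0822 to 9.96 CPM in non-injured libraries. Of 13 lymphocyte markers tested, 3 rose and 0 fell. All these counts stand beside 7.76% of all genes that rose and 7.96% that fell. No member of these 4 lists was at 0 in all libraries of a side, and the part of such cells in the level of Upk1b was not tested.

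Neuron markers were lower on the injured side. Of 12, 11 fell and 0 rose, beside 7.96% of all genes that fell and 7.76% that rose. The median log2 change of the 12 was -3.19. Their sum ran from 25.7 to 420 CPM in injured and from 109 to 9011 CPM in non-injured libraries. It was lower on the injured side in 8 of 8 pairs. The kinase gene Camk2a was the most abundant, at 65.1 ± 87.6 CPM in injured and 1027 ± 2029 CPM in non-injured libraries (SD, n = 8 each). Without the day 4 male library of each side its mean was 37.8 CPM in injured and 326 CPM in non-injured libraries. The synthesis enzyme Gad2 was the one neuron marker with a larger fitted fall than Upk1b, -4.95, but at a maximum of 36.7 CPM. Neuron markers were compared within pairs on the log2(CPM + 1) scale, which understates the change of low genes. On it, 10 of the 12 had a larger fall than Upk1b in the day 4 male pair. This was so for 5 in the day 14 male pair, 1 in the day 7 male pair and 0 in the other 5 pairs. Plain CPM ratios would not give these counts. For example, Gad2 went from 1.86 CPM to 0 within the day 1 female pair, where Upk1b stayed above 0. On the non-injured side, the library with the highest neuron sum, 9011 CPM, had the lowest Upk1b level, 16.9 CPM, and also the highest mitochondrial share. The part of neuronal RNA in the result was not tested.

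Other neural and vascular markers changed less. Of 14 endothelial and mural markers 8 fell, with a median log2 change of -1.48, but leaving out 1 pair ended most of these calls: 0 fell without the female pair of day 1, 1 without the male pair of day 1, and 3 without the male pair of day 7 or of day 14. Their most abundant member, the glucose transporter Slc2a1, did not pass. Of 10 astrocyte markers 2 fell, and of 12 markers of the oligodendrocyte lineage 3 fell and 1 rose, beside 7.96% of all genes that fell and 7.76% that rose. The astrocyte count was 0 without the male pair of day 1, 1 without the female pair of day 1 or the male pair of day 7 or 14, 5 without the female pair of day 14 or with DESeq2, and 6 without the female pair of day 4 or with limma. The myelin gene Mbp fell by 1.12 on the log2 scale. Of 12 meningeal fibroblast markers 1 fell. No astrocyte, endothelial or mural marker had a larger fitted fall than Upk1b, and the part of these cells in the result was not tested.

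Across the 8 libraries of a side, Upk1b varied with the homeostatic genes. On the non-injured side its log2 level correlated with that of their sum at r = 0.90 (exact permutation p = 0.0032, adjusted p = 0.041 over the 26 relations computed) and Spearman's rho = 0.88 (exact p = 0.0072, adjusted 0.094). Without the 2 libraries farthest from the median sum, r was 0.67, so the relation leans on them. It missed the threshold in 6 of the 8 fits that left out 1 library, with r from 0.82 to 0.95. On the injured side r was 0.79 (exact permutation p = 0.015, adjusted p = 0.095) and rho 0.69 (exact p = 0.069, adjusted 0.30), with r = 0.84 without the 2 farthest libraries. The 2 sides form separate clusters, and no r over both is given.

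**Figure D4:**
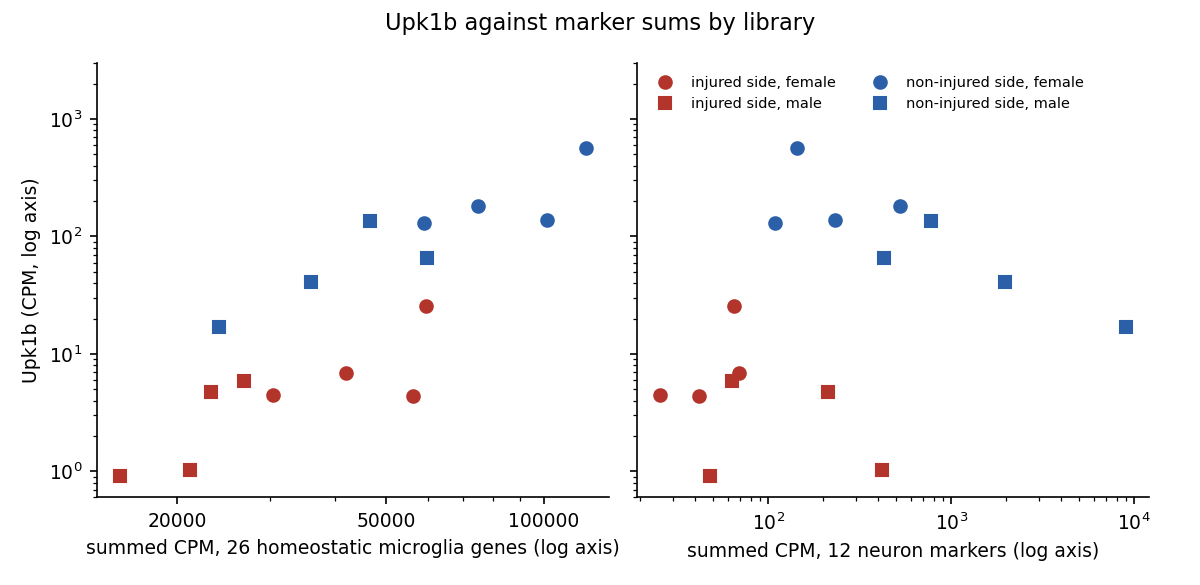
Upk1b against the summed CPM of 26 homeostatic microglia genes (left) and 12 neuron markers (right) in the 16 libraries, both axes log, injured libraries in red and non-injured libraries in blue, females as circles and males as squares. The libraries with the highest Upk1b level on each side also have the highest homeostatic sum of that side, and injured libraries lie below non-injured libraries of a like homeostatic sum.

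Libraries with a like homeostatic sum still differed in Upk1b by side. The day 14 female injured library had a homeostatic sum of 59543 CPM and 25.6 CPM of Upk1b. The day 7 female non-injured library, with a sum of 59138 CPM, had 129 CPM of Upk1b, and the day 1 male non-injured library, with 59719 CPM, had 65.9 CPM. These 3 libraries were singled out after their values were seen.

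With neuron markers, Upk1b on the non-injured side had r = -0.83 (exact permutation p = 0.011, adjusted p = 0.095) and rho = -0.60 (exact p = 0.13, adjusted 0.34), and r = -0.80 without the 2 farthest libraries. With deposited TPM that r was -0.90 and passed, with an adjusted p of 0.018. On the injured side r was -0.29 (exact permutation p = 0.49, adjusted p = 0.72) and rho 0.19. The mitochondrial share had r = -0.67 on the non-injured side (exact permutation p = 0.10, adjusted p = 0.29; rho = -0.55), which became 0.45 without the 2 farthest libraries, and -0.02 on the injured side. The number of detected genes had r = -0.75 on the injured side (exact permutation p = 0.024, adjusted p = 0.12, rho = -0.67). On the non-injured side that r was -0.37. The remaining relations with cell markers and total count did not pass, except for lymphocyte markers.

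Lymphocyte markers followed Upk1b on the non-injured side with r = 0.93 (exact permutation p = 6.9e-04, adjusted p = 0.018) and rho = 0.93 (exact p = 0.0022, adjusted 0.058), and 0.84 without the 2 farthest libraries. On that side 70.8% of the sum came from 1 gene, Cd79b, a signalling chain of the B cell receptor. Without Cd79b, a change made after its values were seen, r of the sum of the other 13 markers was -0.0011. Single markers were not among the 26 relations. Cd79b alone was compared only after its values were seen, so no p-value is given for it. Cd79b stood at 44.6 and 13.8 CPM in the female and male non-injured libraries of day 1, at 26.6 and 3.84 CPM on day 4, at 19.6 and 31.6 CPM on day 7, and at 107.9 and 9.21 CPM on day 14. Its order over the libraries was close to that of Upk1b, with r = 0.99 as a description. On the injured side the description was r = 0.80.

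Cd79b did not pass the test between the sides. It averaged 35.2 ± 34.6 CPM in injured and 32.1 ± 33.3 CPM in non-injured libraries (SD, n = 8 each), a log2 change of 0.06 (SE 0.24, adjusted p = 1.0 in edgeR). Without the day 14 female library of each side the means were 24.3 CPM in injured and 21.3 CPM in non-injured libraries. The day 14 female pair was highest for Cd79b on both sides, at 111.6 CPM in the injured and 107.9 CPM in the non-injured library, as it was for Upk1b and P2ry12.

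The genes whose profile over the 16 libraries was most like that of Upk1b were ranked by the root mean square difference of log2(CPM + 1), each gene centred on its own mean, among 8738 genes with a mean of at least 10 CPM. P2ry12 came first, with a difference of 1.03. Gimap6, a GTPase gene of immune cells, followed at 1.11, then Tmem204, a membrane protein gene, at 1.23 and Slc2a5 at 1.264. Csmd3 stood at 1.29, the zinc transporter Slc39a12 at 1.37, the organic anion transporter Slco1a4 at 1.40 and Agmo, an ether lipid monooxygenase, at 1.42. All 8 were lower on the injured side in 8 of 8 pairs, which is a description, since likeness to Upk1b selects for it.

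Gimap6 stood at 4.01 to 40.1 CPM with a median of 11.3 CPM in injured libraries, against 12.2 to 160 CPM with a median of 72.2 CPM in non-injured ones. Tmem204 ran from 0.984 to 10.1 CPM in injured and from 16.3 to 81.2 CPM in non-injured libraries. All 8 of its injured libraries thus lay below all 8 non-injured ones, as was so for 41 of 28597 genes (0.143%). Genes separated in the other direction are not in that count. P2ry12, Gimap6 and Tmem204 kept their first 3 places with 0.1 CPM added and with deposited TPM, while Slc39a12 moved to place 10, Agmo to place 13 and Slco1a4 to place 17 with TPM.

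**Figure D5:**
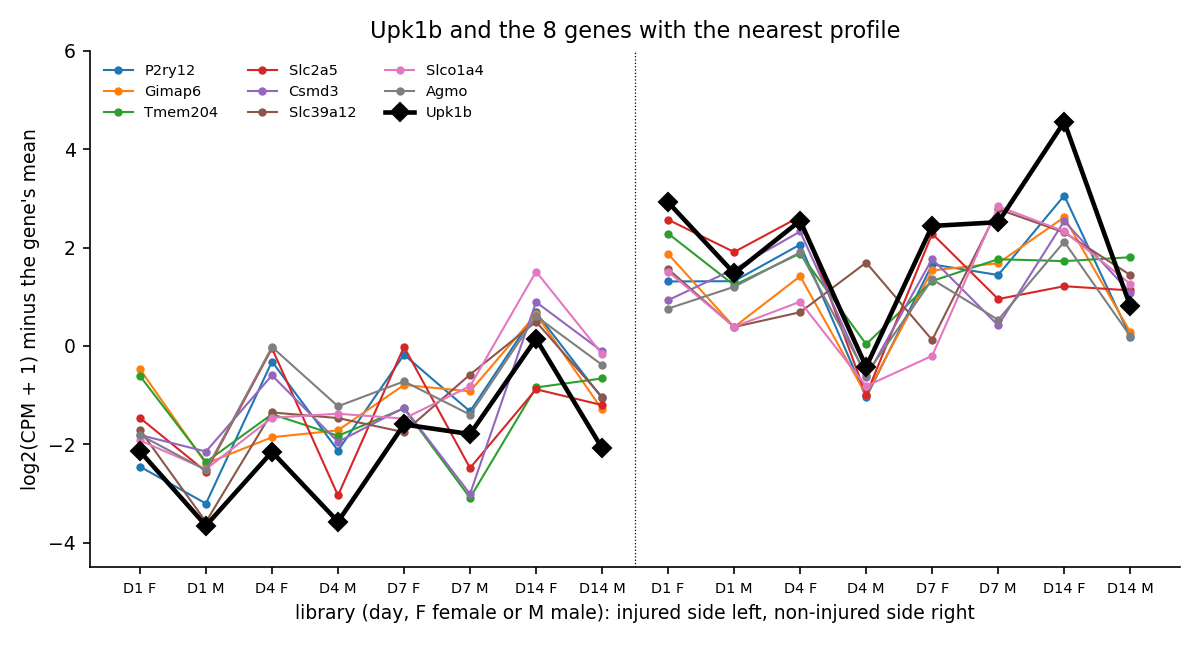
Profiles of Upk1b (black diamonds) and of the 8 genes with the smallest root mean square difference from it, as log2(CPM + 1) minus each gene's mean, over 8 injured libraries (left) and 8 non-injured libraries (right) by day and sex. All 9 genes are lower on the injured side of each pair, and Upk1b has the widest range.

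Genes next to Upk1b on the chromosome changed little in comparison. Of the 4 protein-coding genes on each side, 2 fell, 0 rose and 6 did not pass, with a median log2 change of -0.85, beside 7.96% of all genes that fell and an all-gene median of -0.32. B4galt4, a galactosyltransferase gene that begins its annotation at position 38742264 and ends at 38769049, just beyond the 3′ end of Upk1b, had a log2 change of -1.03 (SE 0.18, edgeR adjusted p = 0.0050) and stood at 43.7 ± 19.9 CPM in injured against 87.1 ± 29.1 CPM in non-injured libraries (SD, n = 8 each). Arhgap31, a GTPase regulator gene, fell by 0.66 (SE 0.19, adjusted p = 0.049 in edgeR), a call that ended in 7 of the 8 fits without 1 pair. Poglut1, Tmem39a, Tex55, Igsf11, Lsamp and Gap43 did not pass. Lsamp and Gap43, which are neuronal genes, had log2 changes of -1.35 and -1.39. On the other side of Upk1b, Tex55 was nearly silent, with at most 0.0701 CPM in injured and 0.4664 CPM in non-injured libraries.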

How the data were processed

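Per the submitters' processing notes the tools were Salmon 1.0.0 and DESeq2 1.26.0, and per the labels' protocols the cDNA came from SMART-Seq v4 and the libraries from Nextera XT, which do not keep the strand. The authors deposited expected counts (estimated reads per gene, not normalized), TPM, and a normalized count signal, which was not used. The authors' deposited tables hold, per the file headers, a log2 fold change per gene, its standard error (a score here), an adjusted p-value and a mean signal over samples, and no p-value of theirs is printed.

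All 32 count columns were used. Over genes with at least 20 counts, the median chi-square between the 2 columns of a group was 0.475 to 0.639, against 0.455 for counting noise, so they were summed and rounded to 16 libraries. Counts were fitted in R 4.3.3 with edgeR 4.0.16 (quasi-likelihood, TMM, filterByExpr at a minimum count of 10), with 8 pair means and 4 day effects (4 residual degrees of freedom). Each side was also fitted with day and sex, and the sex difference of the injury effect with 8 pair means. P-values were adjusted by Benjamini-Hochberg over all genes tested, and a gene is said to rise or fall at an adjusted p under 0.05. DESeq2 1.42.0 and limma 3.58.1 on log2(TPM + 1) were alternatives, with median-ratio factors, no filter, single pairs left out and 32 separate columns. The fits were tested on simulated data. Relations were two-sided exact permutation tests over 8 libraries of log2(CPM + 1), whose smallest possible p is 5.0e-05.

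Of 55385 gene IDs, 54487 were found in GENCODE M21. Named genes are Upk1b, the 8 nearest profiles, all uroplakins, up to 5 tetraspanins called in each direction at a mean of at least 10 CPM, up to 5 homeostatic genes that fell most and each that rose, the 8 neighbours, and the most abundant gene of each other list. Further names stand where a count was small or a gene was singled out after its values were seen. The gene, the lists and the tests were chosen with earlier results of these data known.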

Additional observations from a re-analysis of the deposited data

Results flagged for a closer look

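In groups of 8 libraries, 25 sets of values were screened for a highest or lowest library that lay far from the rest, and 7 were picked out. Chance picks about 1 in 20 only where values follow a normal distribution. CPM and percent values such as these need not, so the 7 are not read as an excess. For Upk1b the day 14 female library stood apart on both sides, at 25.6 CPM among injured libraries and at 564 CPM among non-injured libraries. The same pair had the highest P2ry12 levels, 2221 CPM in the injured and 11523 CPM in the non-injured library. It also had the fewest detected genes of all libraries, 14737 in the injured and 14777 in the non-injured library. The part of this in the level of Upk1b was not tested.

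Among marker sums, the day 4 male library had the most neuron marker RNA on both sides, 420 CPM in the injured and 9011 CPM in the non-injured library. The day 4 male non-injured library also had the highest mitochondrial share, 25.7%, and the lowest non-injured Upk1b level. The day 7 male pair gave the highest meningeal fibroblast sum among injured libraries, 129 CPM, and the highest monocyte sum among non-injured libraries, 213 CPM. The part of these features in the level of Upk1b was not tested.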

How the results depend on the processing

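The log2 change of Upk1b for the mean of the 4 days kept its direction under every alternative run, and was -4.76 to -4.52 when 1 pair was left out. For single days it was -5.61 with no filter and -5.54 with limma on day 1, -3.89 with limma on day 4, and -4.74 with median-ratio factors, -4.74 with DESeq2 and -5.03 with limma on day 7. Without 1 pair it was -6.17 to -5.40 on day 1, -4.98 to -3.94 on day 4, -4.64 to -4.22 on day 7 and -4.40 to -3.08 on day 14.

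Counts of genes called depended strongly on the fit. For the mean of the 4 days, 4496 genes were called (49.4% rose), against 1758 to 4992 without 1 pair. The share that rose was 25% with limma on log2(TPM + 1), 40.7% with median-ratio factors and 41.7% with DESeq2. By day the counts were 301, 584, 107 and 17 on days 1, 4, 7 and 14. They were 101, 210, 16 and 2 with no filter, 2463, 1876, 2136 and 2115 with DESeq2, and 565, 319, 179 and 115 with limma. Median-ratio factors gave 538 on day 1 and 40 on day 14. Without 1 pair they were 0 to 845, 0 to 764, 0 to 720 and 0 to 160. The causes were not tested, except that a day keeps 1 pair when its other pair is left out, and its lone pair is then assumed to vary like the rest.

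Replicate numbers do not show whether columns were paired: deviations of equal numbers on the 2 sides correlated between -0.037 and 0.043, and columns differ by little more than counting noise. With 32 separate columns, the counts were 15305 without and 15034 with a replicate block for the mean, and by day 12918 and 12562, 10508 and 10199, 17442 and 17007, and 14044 and 13652. In those fits the female over male log2 difference passed on the non-injured side (2.08 without and 2.08 with the block) and on the injured side (1.48 and 1.48), as did days on the injured side (adjusted p = 1.7e-04 and 4.7e-04).

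The sex difference of the injury effect was -0.78 to 0.19 without 1 pair, and reversed to 0.19 without the day 14 male pair. With deposited TPM, r on the non-injured side was 0.85 for lymphocytes and no longer passed, and passed at -0.90 for neurons and 0.87 for meningeal fibroblasts. Without Cd79b the lymphocyte r was -0.0011. Without 1 library, r on the non-injured side was 0.82 to 0.95 for homeostatic genes, 0.87 to 1.00 for lymphocytes and 0.42 to 0.93 for border-associated macrophages, and on the injured side 0.69 to 0.93 for homeostatic genes and 0.63 to 0.87 for lymphocytes. Depth limits the injured side most, where Upk1b rests on 28 to 651 counts.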
